A study of Homo sapiens with 3 samples.

Results

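The genes described here are 36 genes of homologous recombination, Fanconi crosslink repair, mismatch repair and the DNA damage checkpoint, chosen by name from the 34520 rows of one expression table. Each of the 36 names matched exactly 1 row, and all 36 passed the filter, an average across libraries of 1 FPKM or more, which left 12433 rows to compare. FPKM is fragments per kilobase of transcript, scaled to the mapped library size. RNA was sequenced from SK-N-Be(2), an established human neuroblastoma line with amplified MYCN. The 3 groups were control cells, cells given arsenic trioxide (ATO) at 2 µM for 12 h and cells given ATO at 4 µM for 12 h, with 1 library each. In the series ATO is presented as a blocker of the contact between N-Myc, the MYCN product, and DNA, so the comparisons ask how these repair genes differed from control at each dose.

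Homologous recombination copies the sequence of a sister chromatid into a double strand break, and is mostly used in S and G2 phase. The MRE11, RAD50 and NBN complex finds the broken end, RBBP8 and EXO1 help to resect it, and BRCA1, PALB2 and BRCA2 help load the recombinase that searches for the matching strand. The Fanconi core complex attaches ubiquitin to FANCD2 and FANCI at crosslinked DNA, and ATM, ATR, CHEK1 and CHEK2 are kinases that halt the cell cycle. Many of these genes are transcribed with the cell cycle through E2F factors, and MYCN amplified neuroblastoma cells are known for replication stress.

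With 1 library per group no value has a replicate check, so no SD and no p-value is given, and every difference below is between single libraries that may also differ as cultures do. Differences are log2 ratios of FPKM + 1, and the added 1 shrinks the ratios of weakly expressed genes. A gene was called lower or higher by the 2-fold rule at an absolute log2 ratio of at least 1, and by the 1.5-fold rule at 0.585. The spacing of low values placed the depth of the 2 µM library at 1.03 times and that of the 4 µM library at 0.991 times the control, but whole multiples, to within 0.01, made up only 21.5%, 19.9% and 20.7% of those values, so reads were not recovered. Taking the longest coding transcript of each gene, and 2 counted units per fragment, which was not settled, the members' control values rested on about 44.3 to 2966 fragments, which gives a CV from counting of 15.0% to 1.84%. Of the markers listed for the labelled cell type, all 10 sympathetic neuroblastoma genes passed the filter, as did 0 of 6 leukocyte, 0 of 4 endothelial, 1 of 5 epithelial (EPCAM, 1.34 FPKM in the control) and 5 of 6 fibroblast genes, the highest being LUM (59.2 FPKM) and PDGFRB (56.0 FPKM). MYCN had 832 FPKM in the control, 412 FPKM at 2 µM and 197 FPKM at 4 µM.

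At 4 µM most of the repair genes were lower than in the control, by less than 2-fold for most of them. Of the 36 members 4 were lower by the 2-fold rule, namely MND1, MSH5, PALB2 and RAD50, and 0 were higher. This is 11.1% of the members, where 5.27% of all rows considered were lower and 4.19% were higher. By the 1.5-fold rule 15 members (41.7%) were lower and 0 were higher, against a background of 17.4% lower and 10.6% higher. The median log2 ratio of the members was -0.41, and that of all rows was -0.13, so the whole table was shifted slightly down at 4 µM and members are best read against it. A log2 ratio below 0 was found in 32 members (88.9%) and in 59.9% of all rows, and 30 members lay below the median of all rows. After median-of-ratios scaling, which moved the median of all rows to -0.003, the number lower by the 1.5-fold rule was 9. In that setting 12.8% of all rows were lower and 14.5% higher by the 1.5-fold rule. The count by the 2-fold rule was then 3, without RAD50, and 3.82% of all rows were lower and 5.76% higher.

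**Figure D1:**
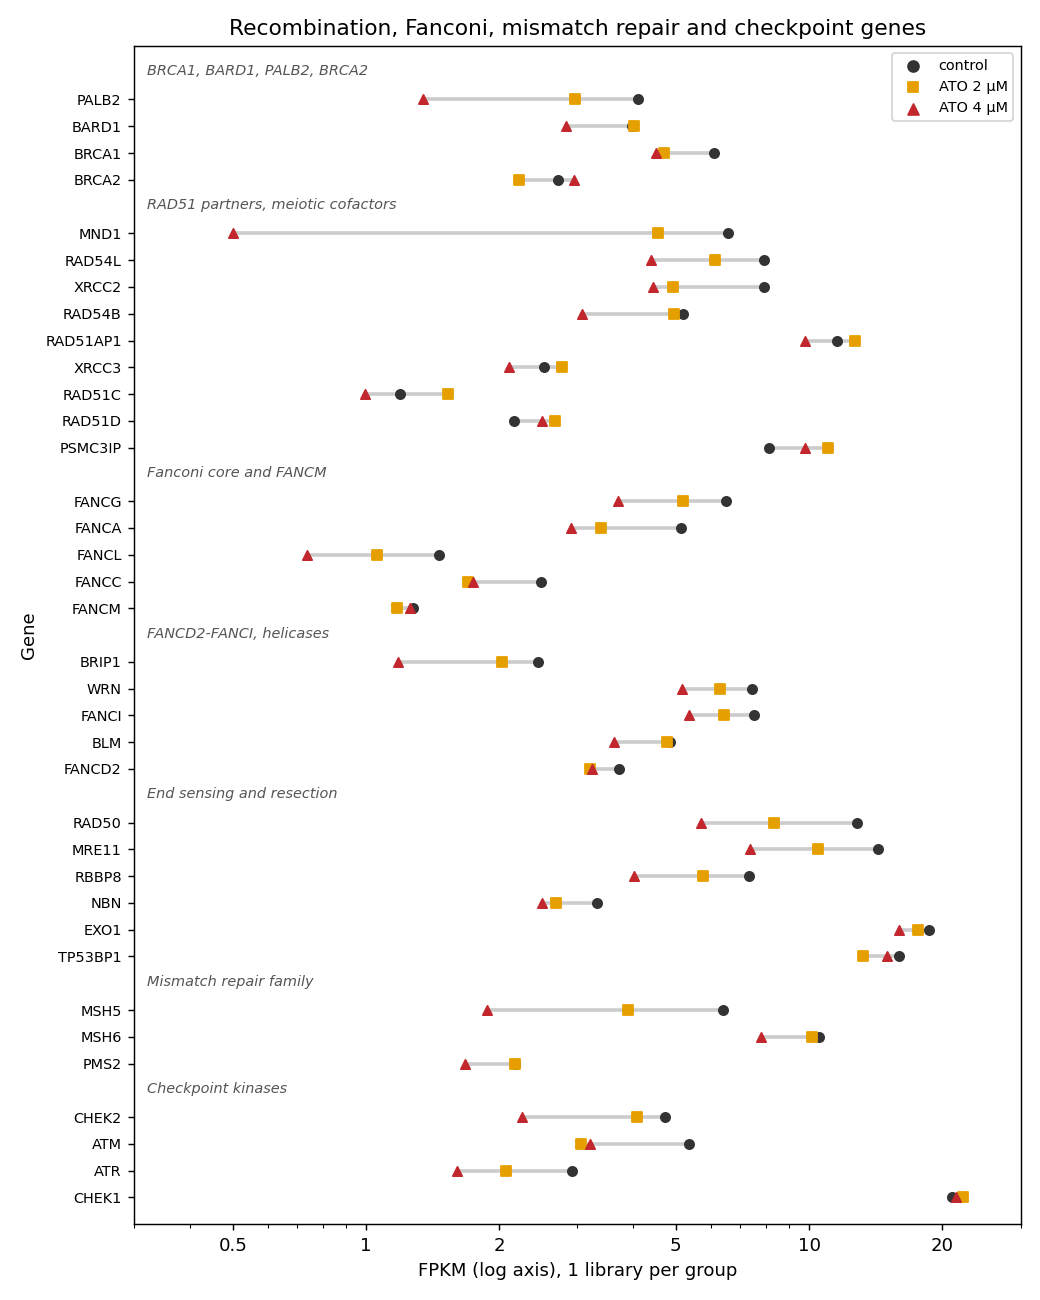
FPKM of the 36 genes in each library, on a log axis, grouped by role; circles are the control, squares ATO 2 µM and triangles ATO 4 µM, with 1 library each and no error bars. The control library was the highest of the 3 for 28 genes and the 4 µM library the lowest for 27, and MND1 at 4 µM (0.4996 FPKM) lies farthest from its control.

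At 2 µM the members were already below the rest of the table in their median, but few passed a size rule. The median log2 ratio was -0.21, where that of all rows was 0.01. None of the 36 passed the 2-fold rule (background 0.901% lower and 1.16% higher). By the 1.5-fold rule 3 (8.33%) were lower, namely ATM, MSH5 and XRCC2, and 0 were higher, beside 4.32% lower and 4.69% higher of all rows. A log2 ratio below 0 was found in 29 members (80.6%) and in 48.4% of all rows. Corrected for length and GC content, the median of the members at 2 µM was -0.16, beside 0.02 for all rows. Then 26 members lay below 0 and 2 were lower by the 1.5-fold rule, beside 3.44% of all rows. The comparison of 4 µM with 2 µM gave 1 gene lower by the 2-fold rule, MND1, and 0 higher (background 1.34% lower and 1.14% higher). By the 1.5-fold rule 4 genes (11.1%) were lower, MND1, MSH5, PALB2 and CHEK2, and 0 were higher (background 9.72% lower and 4.73% higher). In that comparison 30 members (83.3%) lay below 0, beside 63% of all rows. The comparisons share libraries and are not independent of each other. FPKM stood in the order control, 2 µM, 4 µM from high to low in 23 members (63.9%), compared with 34.2% of all rows, and in the opposite order in 0 members, compared with 22.8%. After median-of-ratios scaling, an alternative chosen after seeing the data for this count, 19 members (52.8%) and 28.3% of all rows stood in the first order, and BRCA1, EXO1, NBN and XRCC2 were those that left it.

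**Figure D2:**
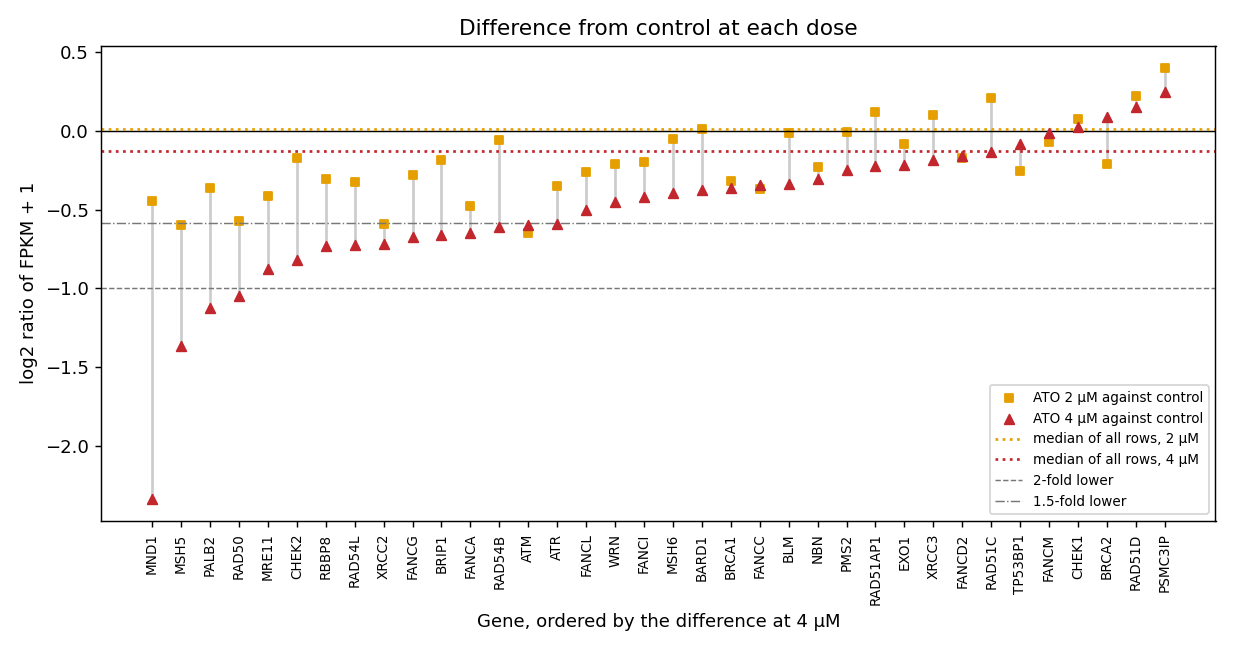
Log2 ratio of FPKM + 1 of each gene against control at 2 µM (squares) and 4 µM (triangles), ordered by the value at 4 µM; dotted lines are the medians of all rows and dashed lines the size rules, with 1 library per group. At 4 µM 15 genes lie at or below the 1.5-fold line and PSMC3IP has the highest value, 0.25.

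Among the genes that act with the recombinase, the widest contrast was between a pair of partners. MND1 and PSMC3IP encode the subunits of one dimer, which aids strand exchange in meiosis and is otherwise mostly a germ cell complex. MND1 had 6.57 FPKM in the control, 4.55 FPKM at 2 µM and 0.4996 FPKM at 4 µM. PSMC3IP had 8.11, 11.04 and 9.81 FPKM in the same order. MND1 was thus lowest at 4 µM by a wide margin, with a log2 ratio of -2.34 to control and 0.193% of all rows further down, while PSMC3IP was lowest in the control and had a ratio of 0.25. At 4 µM the MND1 value stood on about 8.56 fragments if 2 units make a fragment, a counting CV of 34.2%, and its log2 ratio was -3.48 with a pseudocount of 0.1 and -1.07 with 5. PSMC3IP shares exon bases with MLX on the opposite strand. Strand use in counting is not given in the sources used here, so the division of reads over those bases is uncertain.

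Promoter windows of these partners are shown first, since they had the lowest and the highest ratio at 4 µM, followed by those of the 3 members that hold CACGTG, the E-box that N-Myc and MYC bind with MAX. They run from 250 bases before to 50 after a RefSeq start, 5′ to 3′ on the gene's strand, from RefSeq on GRCh38.p14. Capitals mark matches on either strand to CACGTG, to E2F sites (TTTCCCGC, TTTGGCGC, TTTCGCGC or TTTGCCGC), to the cell cycle element CHR (TTTGAA or TTCGAA) and to CCAAT. For MND1 and FANCC the first of 2 listed windows is printed, and for PSMC3IP the one with an E2F match.
MND1 (chr4:153344438-153344737, plus strand): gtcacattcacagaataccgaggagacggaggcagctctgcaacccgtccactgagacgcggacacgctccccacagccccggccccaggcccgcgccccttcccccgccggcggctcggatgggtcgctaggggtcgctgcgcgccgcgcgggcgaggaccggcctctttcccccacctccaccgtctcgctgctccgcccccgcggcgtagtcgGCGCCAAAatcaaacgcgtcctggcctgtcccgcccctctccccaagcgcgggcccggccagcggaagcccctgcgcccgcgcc
PSMC3IP (chr17:42577680-42577979, minus strand): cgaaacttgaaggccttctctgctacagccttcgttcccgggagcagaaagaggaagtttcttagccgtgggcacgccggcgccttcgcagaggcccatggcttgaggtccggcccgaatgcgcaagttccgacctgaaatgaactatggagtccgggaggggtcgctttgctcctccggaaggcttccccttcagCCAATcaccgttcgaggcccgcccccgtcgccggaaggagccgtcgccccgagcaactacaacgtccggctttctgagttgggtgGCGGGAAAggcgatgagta
RAD50 (chr5:132556727-132557026, plus strand): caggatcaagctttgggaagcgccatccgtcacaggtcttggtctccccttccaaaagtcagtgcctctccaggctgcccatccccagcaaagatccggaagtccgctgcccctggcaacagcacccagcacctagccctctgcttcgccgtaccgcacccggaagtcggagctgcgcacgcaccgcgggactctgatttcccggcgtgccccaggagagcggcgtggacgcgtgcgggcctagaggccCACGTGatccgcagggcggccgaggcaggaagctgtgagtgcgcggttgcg
BRCA2 (chr13:32315258-32315557, plus strand): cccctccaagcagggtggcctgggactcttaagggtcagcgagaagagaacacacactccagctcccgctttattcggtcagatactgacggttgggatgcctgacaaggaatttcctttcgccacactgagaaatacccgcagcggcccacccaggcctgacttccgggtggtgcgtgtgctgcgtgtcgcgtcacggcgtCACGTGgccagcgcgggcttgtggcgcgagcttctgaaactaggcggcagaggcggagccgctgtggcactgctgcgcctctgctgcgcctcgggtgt
FANCC (chr9:95317660-95317959, minus strand): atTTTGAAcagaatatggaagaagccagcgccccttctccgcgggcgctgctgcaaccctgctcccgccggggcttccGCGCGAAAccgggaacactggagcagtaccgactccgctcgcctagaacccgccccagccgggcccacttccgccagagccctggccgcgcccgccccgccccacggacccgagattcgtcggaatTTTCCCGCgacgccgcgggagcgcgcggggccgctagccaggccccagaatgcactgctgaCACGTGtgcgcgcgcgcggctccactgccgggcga

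MND1 and PSMC3IP each hold an E2F match on the reverse strand, and neither holds CACGTG. The members with CACGTG differed at 4 µM, since RAD50 had a log2 ratio of -1.05, FANCC -0.35 and BRCA2 0.09. Of the 32 members with a window in the RefSeq table, 3 held CACGTG in at least 1 window (9.38%), and so did 12.9% of the 9132 genes considered here that have a window. E2F matches were found in 9 of the 32 members (28.1%) and in 6.87% of those genes. The 9 were EXO1, FANCA, FANCC, FANCD2, MND1, MSH6, PMS2, PSMC3IP and XRCC2, whose log2 ratios at 4 µM ran from -2.34 to 0.25. CCAAT was found in 18 members (56.2%, against 44.0%) and CHR in 4 (12.5%, against 15.2%). These are matches of letters in a window, and nothing in these data measured binding.

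The other genes around the recombinase differed less. RAD54L, a motor protein that remodels DNA during strand exchange, had 7.91 FPKM in the control, 6.12 FPKM at the lower dose and 4.40 FPKM at the higher (log2 ratio -0.72). Its relative RAD54B had 5.21, 4.95 and 3.07 FPKM (-0.61), so almost all of its difference lay between 2 and 4 µM. XRCC2, a paralog of the recombinase, had 7.93, 4.93 and 4.43 FPKM (-0.72), with most of the difference already present at 2 µM. The other paralogs lay closer to control. XRCC3 had 2.52, 2.77 and 2.10 FPKM, RAD51C had 1.195, 1.53 and 0.997 FPKM and RAD51D had 2.15, 2.68 and 2.50 FPKM. Each of these 3 was highest at 2 µM, and none passed the 1.5-fold rule. RAD51AP1, which stimulates strand pairing, was well expressed at 11.6, 12.7 and 9.80 FPKM (-0.22). Of the 9 genes of this role 4 were lower by the 1.5-fold rule at 4 µM, beside 17.4% of all rows. The median of the 9 was -0.22. After median-of-ratios scaling RAD54B was at -0.49 and missed the rule.

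BRCA1, a ubiquitin ligase subunit that promotes resection, and its partner BARD1, a gene linked to neuroblastoma risk, ended at a similar distance from control by different steps. BRCA1 had 6.09, 4.70 and 4.51 FPKM from control to the higher dose (log2 ratio -0.36), lower at both doses. BARD1 had 3.97, 4.02 and 2.83 FPKM (-0.38), lower at 4 µM alone. PALB2, which bridges BRCA1 and BRCA2, had 4.11, 2.96 and 1.34 FPKM, a log2 ratio of -1.12 with 3.81% of all rows further down. BRCA2, which loads the recombinase, had 2.71, 2.22 and 2.94 FPKM (0.09), so the 2 µM library was its lowest. With a pseudocount of 5 the PALB2 ratio was -0.52 and no longer passed the 1.5-fold rule.

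**Figure D3:**
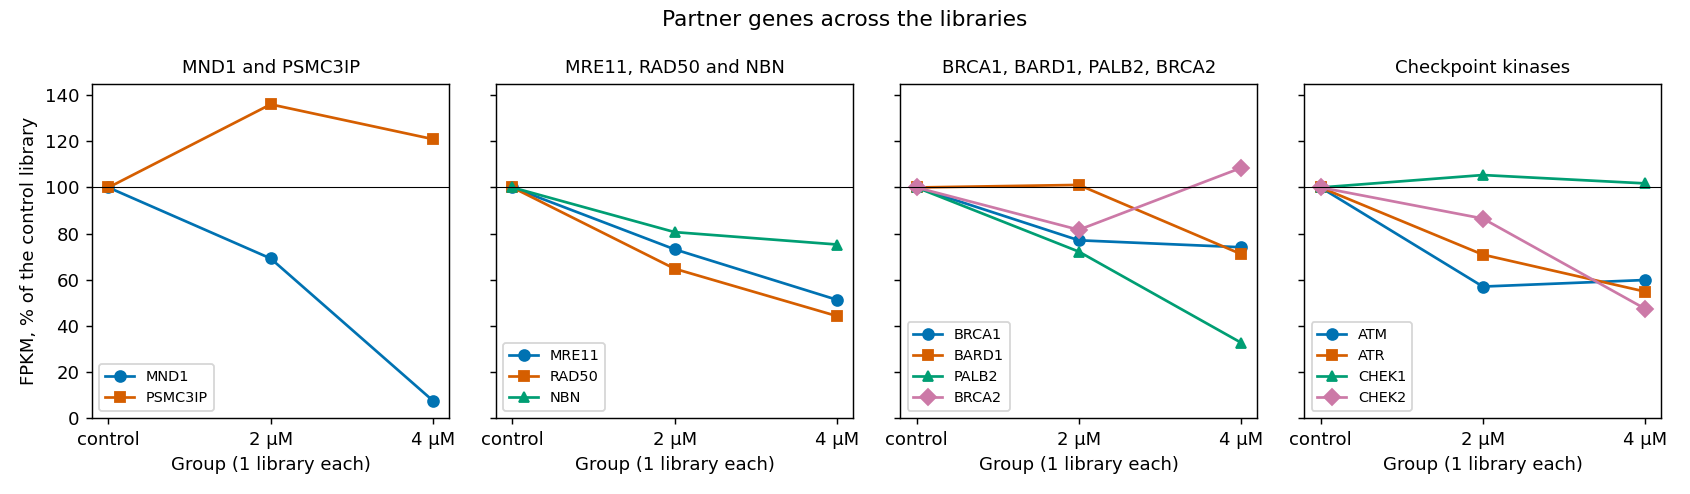
FPKM at each dose as a percentage of the control library for 4 groups of partner genes, with 1 library per point and no error bars. At 4 µM MND1 stood at 7.60% of control and PSMC3IP at 121%, PALB2 at 32.7% and BRCA2 at 108%, and CHEK2 at 47.4% and CHEK1 at 102%.

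All 3 genes of the end sensing complex were below control at both doses. RAD50, the coiled coil ATPase of the complex, had 12.8 FPKM in the control, 8.32 FPKM at the lower dose and 5.69 FPKM at the higher (log2 ratio -1.05). MRE11, its nuclease, had 14.3, 10.5 and 7.35 FPKM (-0.88). NBN, the subunit that recruits ATM, had 3.32, 2.68 and 2.50 FPKM (-0.30), and its small step between the doses changed sign with median-of-ratios scaling (0.04). RAD50 and MRE11 were thus at 44.3% and 51.3% of control at 4 µM, and NBN at 75.3%. After median-of-ratios scaling RAD50 was at -0.91 and missed the 2-fold rule. RBBP8, which starts resection with this complex, had 7.33, 5.75 and 4.03 FPKM (-0.73). EXO1, the exonuclease that extends resection and also serves mismatch repair, had 18.7, 17.6 and 16.0 FPKM (-0.21). TP53BP1, which opposes resection, had 16.0, 13.3 and 15.0 FPKM (-0.08), and its sign at 4 µM turned with median-of-ratios scaling (0.06). Within this role 3 of 6 genes were lower by the 1.5-fold rule at 4 µM, beside 17.4% of all rows.

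In the Fanconi core complex, FANCA, FANCG and the ubiquitin ligase FANCL were ordered by dose. FANCG had 6.50, 5.19 and 3.70 FPKM (log2 ratio -0.67), FANCA had 5.13, 3.40 and 2.90 FPKM (-0.65) and FANCL, near the filter, had 1.46, 1.06 and 0.734 FPKM (-0.50). The FANCL values stood on about 44.3, 33.0 and 22.1 fragments if 2 units make a fragment. Their counting CVs were 15.0%, 17.4% and 21.3%, so its dose order is uncertain. FANCC had 2.48, 1.70 and 1.74 FPKM (-0.35), with like values at both doses. FANCM, the translocase that anchors the core complex on DNA, had 1.28, 1.17 and 1.26 FPKM (-0.01), and its sign turned with scaling. FANCG and FANCA passed the 1.5-fold rule among these 5 genes, beside 17.4% of all rows lower. Neither passed it after median-of-ratios scaling, at -0.55 and -0.53, where 12.8% of all rows were lower.

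FANCI and FANCD2, the substrates of the core complex, did not pass the 1.5-fold rule. FANCI had 7.51, 6.42 and 5.36 FPKM (-0.42) and FANCD2 had 3.73, 3.20 and 3.23 FPKM (-0.16). BRIP1, a helicase that binds BRCA1, had 2.44, 2.02 and 1.18 FPKM (-0.66), mostly between 2 and 4 µM. The RecQ helicases WRN and BLM, which unwind recombination intermediates and stalled forks, had 7.42, 6.29 and 5.17 FPKM (-0.45) and 4.86, 4.79 and 3.63 FPKM (-0.34). BRIP1 was the only gene of these 5 past the 1.5-fold rule at 4 µM, close to the 17.4% of all rows that were lower. After median-of-ratios scaling BRIP1 stood at -0.57, just short of the rule, and 12.8% of all rows were lower.

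The mismatch repair family differed by member. MSH6, a subunit of the main mismatch sensor, had 10.6, 10.1 and 7.80 FPKM (log2 ratio -0.39). PMS2, a nuclease subunit that acts after the sensor, had 2.17, 2.16 and 1.67 FPKM (-0.25). Many pseudogenes resemble PMS2, so its reads are uncertain. MSH5, a meiotic relative that acts on recombination intermediates, was much lower, at 6.40, 3.90 and 1.88 FPKM (-1.36). The read-through row MSH5-SAPCD1, which shares exons with it, had 4.83, 3.15 and 0.956 FPKM and was ordered the same way, so the division of reads between these rows is uncertain. MSH5 and MND1, both genes of meiotic recombination, thus had the lowest ratios of the 36, an observation made after the values were seen.

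Of the checkpoint kinases, ATM, ATR and CHEK2 were lower and CHEK1 was close to control. ATM, which responds to double strand breaks, had 5.35, 3.05 and 3.20 FPKM (log2 ratio -0.65 at 2 µM and -0.59 at 4 µM), with like values at both doses. ATR, which responds to single stranded DNA at stalled forks, had 2.92, 2.07 and 1.60 FPKM (-0.59). CHEK2, the kinase downstream of ATM, had 4.73, 4.09 and 2.24 FPKM (-0.82). CHEK1, downstream of ATR and the highest of all 36 in the control, had 21.1, 22.2 and 21.4 FPKM (0.02). It shares exon bases with the more abundant STT3A on the same strand, so the division of reads between these rows is uncertain. The ATM and ATR ratios were -0.47 and -0.49 after median-of-ratios scaling and then missed the 1.5-fold rule, while CHEK2 still passed it. Corrected for length and GC content, ATM was -0.43 at 2 µM and -0.65 at 4 µM, so the order of the doses turned.

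The 15 members lower by the 1.5-fold rule at 4 µM did not share a dose step. The larger part of the log2 difference lay between control and 2 µM for 5 of them (RAD50, XRCC2, FANCA, ATM and ATR) and between 2 and 4 µM for 10. This count of 5 depended on the setting. It was 3 with the correction for length and GC content, where RAD50 and ATR had their larger part between the doses, and 9 with median-of-ratios scaling, where FANCG, MRE11, RAD54L and RBBP8 had theirs before 2 µM. Across the libraries, the FPKM of the 36 genes summed to 239, 206 and 169 in the control, 2 µM and 4 µM libraries. Exon bases shared with a coding gene on the opposite strand that has its own row were found for 11 members (ATM, CHEK2, FANCA, FANCI, FANCL, MRE11, MSH6, PSMC3IP, RAD54L, TP53BP1 and XRCC3), and CHEK1 and RAD54B share exon bases with STT3A and FSBP on the same strand. STT3A, at 46.8, 52.2 and 53.0 FPKM, was more abundant than CHEK1.

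Other genes of the same pathways were listed by function, with earlier results of these data already known. Their counts at 4 µM stand beside 17.4% of all rows lower and 10.6% higher by the 1.5-fold rule. By the 2-fold rule these shares were 5.27% and 4.19%. Of 38 considered genes of recombination and Fanconi repair outside the 36, 0 passed the 2-fold rule at 4 µM, 10 were lower and 1 was higher by the 1.5-fold rule, and the median log2 ratio was -0.35. ABRAXAS1, a scaffold of a BRCA1 complex, had 5.01, 3.20 and 2.02 FPKM (-0.99). RMI2, a partner of BLM, had -0.90, the single strand binding subunit RPA3 had -0.88 and the resection nuclease and helicase DNA2 had -0.76. RECQL, another RecQ helicase, was the 1 higher gene (19.99, 25.5 and 32.5 FPKM, 0.67). Of 16 other mismatch repair genes, which include the sliding clamp and its polymerase, 5 were lower and 0 higher by the 1.5-fold rule (median -0.50), led by PMS1 (-0.93) and POLD1 (-0.83). Of 23 other checkpoint genes 3 were lower and 1 was higher (median -0.11, close to that of all rows). The higher one was RNF168, a ubiquitin ligase that marks chromatin at breaks, at 10.3, 13.3 and 20.6 FPKM (0.93), and among the lower ones was the ATR activator ETAA1 (-0.93).

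Genes that mark proliferating cells were lower beside the repair genes at 4 µM. In the S phase list 14 of 30 genes were lower and 1 was higher by the 1.5-fold rule (median -0.58, summed FPKM 748, 650 and 498). In the G2 and mitosis list 10 of 25 were lower and 0 higher (median -0.52, summed FPKM 954, 897 and 625). Of all rows 17.4% were lower and 10.6% higher by this rule. At 2 µM the medians were -0.09 and 0.02, closer to that of all rows than the members' -0.21. CDKN1A, which encodes the CDK inhibitor p21, had 4.93, 15.8 and 46.6 FPKM. All 10 neuroblastoma markers, MYCN among them, were also lower at 4 µM (median -1.45, summed FPKM 1315, 720 and 343). So were all 5 considered fibroblast-associated genes (median -1.68, summed FPKM of the list of 6, 177, 103 and 59.8). The summed leukocyte markers stayed at or under 1.33 FPKM in each library. The part of cell cycle state or of other cells in the repair gene differences was not tested, and in bulk RNA fewer cells of a type and less RNA per cell cannot be told apart.

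**Figure D4:**
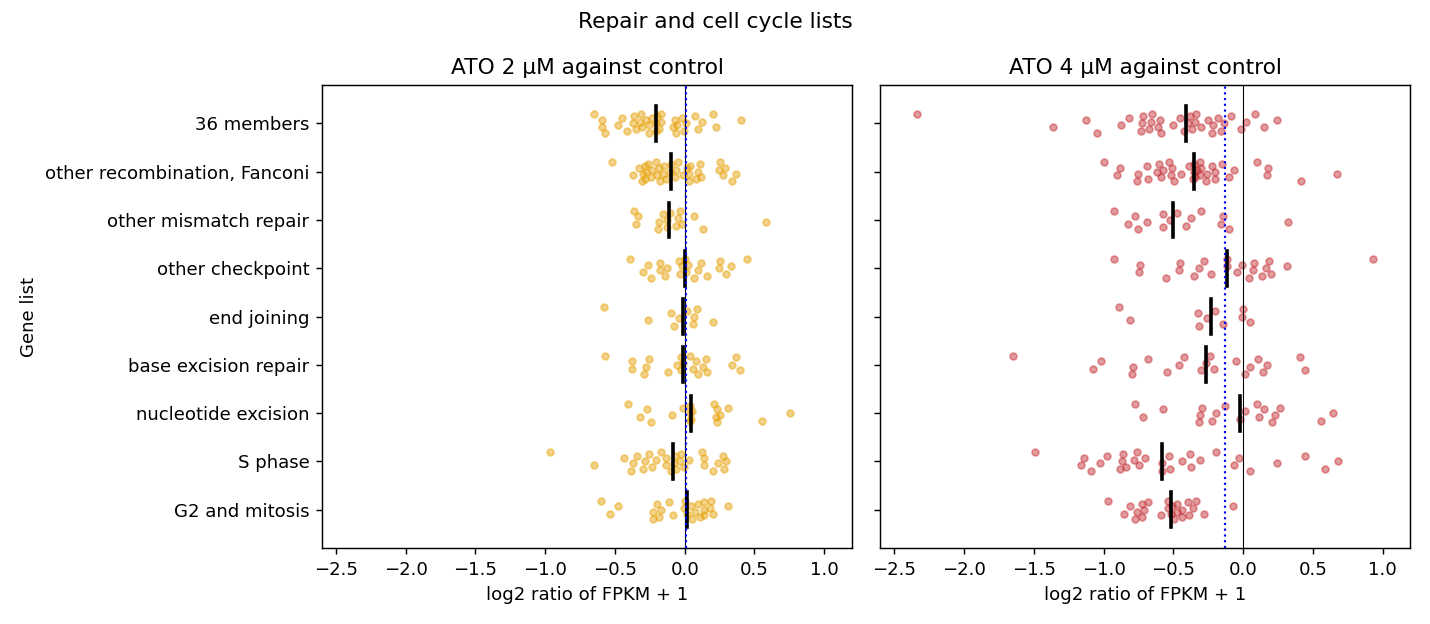
Log2 ratio of FPKM + 1 against control for the 36 genes and 8 other lists at 2 µM (left) and 4 µM (right); each point is a considered gene, black bars are list medians, the blue dotted line is the median of all rows, and each group has 1 library. At 4 µM the median of the 36 genes (-0.41) lies between those of nucleotide excision repair (-0.02) and S phase genes (-0.58).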

How the data were processed

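TruSeq paired-end libraries, 1 in each of 3 groups, were prepared from 1.3 µg of RNA, per the labels' protocols. The table holds FPKM by gene and library as the authors deposited it, per the file headers. No aligner, counting tool or strand setting is given in the sources used here. Mouse builds (GRCm38, mm10) stand in the submitters' processing notes although rows carry human symbols, so no coordinates were taken from the rows. Rows that averaged 1 FPKM or more were considered, and log2 ratios of FPKM + 1 were computed in Python 3.11.15 (pandas 2.3.3, numpy 2.4.6). With 1 library per group no test was run. Transcript length and GC content came from the longest coding transcript in GENCODE 29, and all 36 members had both. The size rule and the GC correction were tested on simulated data. Promoter windows came from RefSeq, and 32 of the 36 members matched. The members and lists were chosen with earlier results of these data known. All members are named, and from other lists up to 4 considered genes with the largest absolute log2 ratio at 4 µM. Genes outside this rule (RECQL, the overlap partners, the read-through row) were named after their values were seen. Alternatives were the pseudocount, the filter, 3 scalings and a GC and length correction.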

Additional observations from a re-analysis of the deposited data

How the results depend on the processing

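The direction of the members' median log2 ratio was the same in all 8 alternatives in each of the 3 comparisons, and no member passed either size rule as higher in any. A median was called moved at a shift of 0.1 or more. At 4 µM against control the median was -0.28 with median-of-ratios scaling and -0.24 with a pseudocount of 5. The count of members lower by the 1.5-fold rule there was 15. It was 9 with median-of-ratios scaling, 4 with a pseudocount of 5 and 6 of 15 considered members under a filter of 5 FPKM. In these settings 12.8%, 6.70% and 16.3% of all rows were lower by this rule. The count by the 2-fold rule, 4, was 3 with median-of-ratios scaling, 1 with a pseudocount of 5 and 1 with the stricter filter. The shares of all rows were then 3.82%, 1.38% and 5.31%. At 2 µM the median was -0.11 with a pseudocount of 5. The count of members lower by the 1.5-fold rule there was 3. It was 0 with a pseudocount of 5, 1 of 15 considered members with the stricter filter and 5 as TPM. Of all rows 1.33%, 3.27% and 6.998% were then lower by this rule, against 4.32% as deposited. At 4 µM against 2 µM the median was -0.36 with a pseudocount of 0.1 and -0.13 with 5. The 4 members lower by the 1.5-fold rule in that comparison were 0 with the stricter filter and 1 with a pseudocount of 5, beside 10.7% and 2.66% of all rows. The 1 member lower by the 2-fold rule was 3 with a pseudocount of 0.1, 0 with 5 and 0 with the stricter filter. Of all rows 3.77%, 0.241% and 1.63% were then lower by the 2-fold rule. A larger pseudocount shrinks ratios and a stricter filter leaves fewer genes, by construction. Among all rows, 475 were lower and 716 higher by the 2-fold rule at 4 µM with median-of-ratios scaling, against 655 and 521 as deposited, and for 4 µM against 2 µM 90 and 225, against 166 and 142. With upper-quartile scaling these were 602 and 573, and 113 and 172. The sign of 34 members at 4 µM and of 32 at 2 µM against control was the same in every setting, the exceptions being FANCM and TP53BP1 at 4 µM and BARD1, BLM, FANCM and MSH6 at 2 µM. For 4 µM against 2 µM 25 members kept one sign. No paired analysis was possible because each group has 1 library. Depth limits MND1 at 4 µM most, and the spread between cultures is unknown for every value.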

Other observations

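Other repair pathways had medians closer to that of all rows than the 36 genes had at 4 µM, with a few genes apart. In base excision repair 3 of 21 considered genes were lower by the 2-fold rule and 0 were higher (median log2 ratio -0.26). Of all rows 5.27% were lower and 4.19% higher by this rule. NTHL1, a glycosylase for oxidised pyrimidines, had 8.25 FPKM in the control, 6.12 FPKM at the lower dose and 1.95 FPKM at the higher (-1.65). The uracil glycosylase gene UNG had 16.6, 13.3 and 7.34 FPKM (-1.07) and the glycosylase gene NEIL2 had 9.03, 5.75 and 3.95 FPKM (-1.02). PARP1, which senses strand breaks, had 26.7, 24.5 and 14.9 FPKM (-0.80).

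In end joining 0 of 10 genes passed the 2-fold rule (median -0.23), beside 5.27% of all rows lower and 4.19% higher. PRKDC, the catalytic subunit of the DNA dependent protein kinase, had 24.997, 16.4 and 13.8 FPKM (-0.81) and PAXX, an end joining cofactor, 13.4, 12.7 and 6.79 FPKM (-0.89). Nucleotide excision repair had a median of -0.02 over 19 genes, with 2 lower and 1 higher by the 1.5-fold rule. Among them were the lesion binding gene XPA (-0.72) and MNAT1, an assembly factor of the CDK activating kinase (0.64). Of all rows 17.4% were lower and 10.6% higher by that rule. In the S phase list the helicase subunit genes MCM7 and MCM3 had -1.49 and -1.14, the primase subunit gene PRIM1 -1.16 and POLA2 -1.09.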
